A study of Mus musculus with 5 samples.

Results

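Dopamine neuron genes that share a programme with the homeodomain factor PITX3 were followed in the liver of mice that carry a Pitx3 mutation. The set held 8 listed genes: Nr4a2, Slc18a2, Slc6a3, Th, Ddc, Drd2, Bdnf and En1. Members were found by their gene symbol in the array's probe-to-gene table, which names 9930 genes in all. With this rule 4 genes were found, on 6 probes: Nr4a2, Ddc and Slc18a2 with 1 probe each and Drd2 with 3. Slc6a3, Th, Bdnf and En1 were not analysed here, and neither was Pitx3 itself.

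The samples were livers of 5 male mice aged 17 weeks, homozygous for the eyeless (eyl) allele of Pitx3. Each 2-colour array carried the RNA of 1 mutant mouse against RNA pooled from wild-type mice. The pool held 4 animals by the sample labels, and 6 by the labelling protocol. The mutant was in Cy5 on replicates 1, 2 and 4 and in Cy3 on replicates 3 and 5. No wild-type mouse had an array of its own, so the spread between wild-type livers enters no error given here. Since a ratio carries no level, the labelled tissue could not be checked against its markers.

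In midbrain dopamine neurons, PITX3 works beside the nuclear receptor NR4A2 and the homeodomain factor EN1 to switch on the genes that make, store and recover dopamine. Tyrosine hydroxylase (Th) and aromatic L-amino acid decarboxylase (Ddc) make dopamine, and the vesicular monoamine transporter VMAT2 (Slc18a2) loads it into vesicles. The dopamine transporter (Slc6a3) takes it back up, and the D2 receptor (Drd2) senses it. The neurotrophin BDNF supports these neurons. Liver is not known for a dopamine programme, but Ddc is also made in liver and kidney, and NR4A receptors are immediate early genes in many tissues.

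Windows of Ddc, Nr4a2 and Slc18a2 are shown, since the results turn on these genes, and NR4A2 binds a known element, the NBRE, spelled AAAGGTCA, and PITX3 a bicoid-type site, spelled TAATCC. Both were searched on both strands in the 250 bases before each start site of RefSeq on GRCm38.p6; the motifs do not overlap each other. Among all 32851 such windows, 1.34% held the NBRE and 6.25% the bicoid-type site. Of the 15 windows of the 8 genes, 1 held the NBRE, at the upstream start of Ddc, and 0 held the bicoid-type site. The window of Drd2 and that of the downstream Ddc start are not printed. The sequences run 5′ to 3′ on the strand of the gene, and capitals mark the NBRE, which lies on the opposite strand and starts 73 bases before the Ddc start site. The windows are chr11:11898145-11898394 (minus strand) for Ddc, chr2:57124004-57124253 (minus strand) for Nr4a2 and chr19:59260628-59260877 (plus strand) for Slc18a2.
Ddc: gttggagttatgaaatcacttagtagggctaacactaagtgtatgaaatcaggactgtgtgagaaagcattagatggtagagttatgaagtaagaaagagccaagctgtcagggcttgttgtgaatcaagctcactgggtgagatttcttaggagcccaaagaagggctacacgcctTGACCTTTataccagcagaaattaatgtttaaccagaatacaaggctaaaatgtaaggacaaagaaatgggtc
Nr4a2: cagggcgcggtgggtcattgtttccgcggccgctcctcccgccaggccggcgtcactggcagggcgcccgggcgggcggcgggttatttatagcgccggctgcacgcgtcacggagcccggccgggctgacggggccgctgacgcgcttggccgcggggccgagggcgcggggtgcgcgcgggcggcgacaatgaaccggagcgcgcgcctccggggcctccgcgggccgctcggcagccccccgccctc
Slc18a2: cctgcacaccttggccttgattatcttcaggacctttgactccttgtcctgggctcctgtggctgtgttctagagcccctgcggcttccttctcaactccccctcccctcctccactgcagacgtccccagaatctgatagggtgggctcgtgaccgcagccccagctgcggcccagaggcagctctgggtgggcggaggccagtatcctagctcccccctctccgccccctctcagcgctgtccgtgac
GC content was 40.8% in the Ddc window, 80.0% in that of Nr4a2 and 64.0% in that of Slc18a2, where the median of all windows was 52.4%. A match of letters describes the window only and was not set against any binding data.

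The values are log2 ratios as deposited, read here as mutant over pool. That direction is not known. It rests on labels that give the mutant as first channel, and on codes for unmeasurable ratios, positive on every Cy5 array and negative on both Cy3 arrays. If the dye-swapped arrays ran the other way, the mutant and dye coefficients given below would trade places. Per array there were 13576 to 15892 measured values with a median between -0.19 and 0.23. Between arrays of the same dye orientation Pearson's r across probes was -0.02 to 0.11. Between arrays of opposite orientation it was -0.26 to -0.05, across probes that share the pool and are no independent replicates. These negative values would be positive if the dye-swapped arrays were turned, so they bear on the direction, which they do not settle. Of the 30 values that 6 probes could give, 20 were measured, 9 were missing and 1 was a code (a fixed extreme number that stands for no measurable ratio). The number of arrays, 5, limits the precision of everything that follows.

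Nr4a2, the nuclear receptor that acts with PITX3, had high ratios on the dye-swapped arrays and lower ones on the rest. With the mutant in Cy5, its log2 ratio was 0.34 on replicate 1, -1.97 on replicate 2 and 0.44 on replicate 4. With the mutant in Cy3 it was 3.94 on replicate 3 and 1.73 on replicate 5. Both Cy3 arrays lay above every Cy5 array, so the dye groups did not overlap. Of all 6364 probes measured on 5 arrays, 11.5% had both Cy3 arrays above the Cy5 arrays in this way and 9.84% had both below. On replicate 3 the value stood at the 98.1st percentile of that array, and on replicate 2 at the 10.6th. In whole tissue, a change in the number of expressing cells and a change in RNA per cell cannot be told apart.

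To separate the strain from the label, limma fitted a mutant coefficient (the mean of both dye orientations, weighted equally) and a dye coefficient (the Cy5 mean minus the Cy3 mean, divided by 2) to each of 11300 probes. The SEs, intervals and p-values given with these coefficients are moderated: limma draws the variance of each probe toward a prior taken from all tested probes. For Nr4a2 the mutant coefficient was 1.22 ± 0.56 (SE, n = 5 arrays), with a 95% interval from -0.19 to 2.63. The dye coefficient was larger in size, at -1.62 ± 0.56. Neither passed after Benjamini-Hochberg adjustment over all probes (limma adjusted p 0.999 for the mutant and 0.609 for the dye coefficient). On the Cy5 arrays alone the mean was -0.40 ± 1.36 (SD, n = 3), below 0, against a mean of 2.83 on the 2 Cy3 arrays. The mutant coefficient was 0.66 without replicate 3 and 1.77 without replicate 5.

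Ddc, the decarboxylase that turns L-DOPA into dopamine, stayed close to the pool on every array. Its log2 ratio was -0.02 on replicate 1, 0.48 on replicate 2 and 0.21 on replicate 4 with the mutant in Cy5. It was 0.15 on replicate 3 and -0.18 on replicate 5 with the mutant in Cy3. The Cy3 values lay within or just under the Cy5 values, and 3 of 5 arrays were above 0. The mutant coefficient was 0.10 ± 0.27 (SE, n = 5 arrays), and the dye coefficient was 0.12 ± 0.27.

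The 95% interval of the Ddc mutant coefficient, -0.57 to 0.78, corresponds to a ratio of mutant to pool between 0.673 and 1.72. Differences within that interval are compatible with the moderated fit, and Ddc was not called (limma adjusted p 0.999). The interval is not a limit of detection. The residual SD of Ddc was 0.25, and 5.82% of the tested probes had a smaller one. The prior SD was 0.847, so the moderated interval is wider than the variance of Ddc alone would give. Ddc thus had the smallest residual SD of the tested member probes.

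Slc18a2, which encodes the transporter that packs monoamines into vesicles, was measured on 4 arrays. Its log2 ratio was -1.76 on replicate 1, -0.45 on replicate 2 and 0.91 on replicate 4, all with the mutant in Cy5. Replicate 3, its single measured array with the mutant in Cy3, had 4.57, the 99.0th percentile of that array. That array stood apart from the other measured arrays, which lay on both sides of 0.

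The mutant coefficient of Slc18a2 was 2.07 ± 0.64 (SE, n = 4 arrays), with a 95% interval from 0.34 to 3.80. That interval uses the moderated variance. The residual SD of Slc18a2 was 1.33, above the prior SD of 0.847, so the variance of Slc18a2 alone would give a wider interval. Before adjustment its limma p was 0.0288, and after adjustment over all probes 0.999. Both coefficients rest on 1 Cy3 array, whose spread is assumed to equal that of the 3 Cy5 arrays. The estimate had its sign on 2 of 4 arrays, and the Cy5 mean was -0.43 ± 1.33 (SD, n = 3). The dye coefficient, -2.50 ± 0.64, was again larger in size (limma adjusted p 0.521). Without a dye term the mean of the 4 arrays was 0.82, with a moderated limma SE of 1.08, and their SD was 2.73. Without replicate 3 no dye term could be fitted.

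VMAT2 is also made by mast cells and neuroendocrine cells, and markers of both were set beside it. The mast cell list had probes for 3 of 8 genes, of which 1 was tested. This was Tpsb2, a mast cell tryptase, with -1.82 and -2.72 on replicates 2 and 4 (Cy5) and 4.82 and 4.39 on replicates 3 and 5 (Cy3). Its mutant coefficient was 1.17 ± 0.35, below the size of its dye coefficient of -3.44 ± 0.35. The neuroendocrine list had probes for 2 of 6 genes, with Chga (chromogranin A, of secretory granules) tested at 0.72 ± 0.58 and a dye coefficient of -1.70 ± 0.58. Chga had 4.24 on replicate 3, its highest array, where the other gene of the list with a probe, Chgb, had -3.60, its only value (named after its value was seen). The islet list had 0 of 5 genes with a probe. The part of these cells in the Slc18a2 values was not tested.

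Drd2, the inhibitory dopamine receptor that also acts as an autoreceptor, had 3 probes, numbered here in table order. Probe 1 had log2 ratios of -1.53, -0.20 and 1.15 on the Cy5 arrays (replicates 1, 2 and 4) and 0.61 on replicate 5. Its single Cy3 array, replicate 5, lay inside the range of the Cy5 arrays. Probe 2 had no measured value: it was missing on 4 arrays and held the code, -16.69, on replicate 5. Probe 3 was measured on 2 arrays, with 0.43 on replicate 1 and 0.46 on replicate 5.

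The Drd2 probes thus gave no common picture. On replicate 5 probe 3 was 0.15 below probe 1, at 0.46 against 0.61. On replicate 1 it was 1.97 above probe 1, with the opposite sign. Probe 1 was tested and had a mutant coefficient of 0.21 ± 0.64 (SE, n = 4 arrays), with a 95% interval from -1.53 to 1.94, and a dye coefficient of -0.40 ± 0.64. Without replicate 4 its mutant coefficient was -0.13, so its sign rests on that array.

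**Figure D1:**
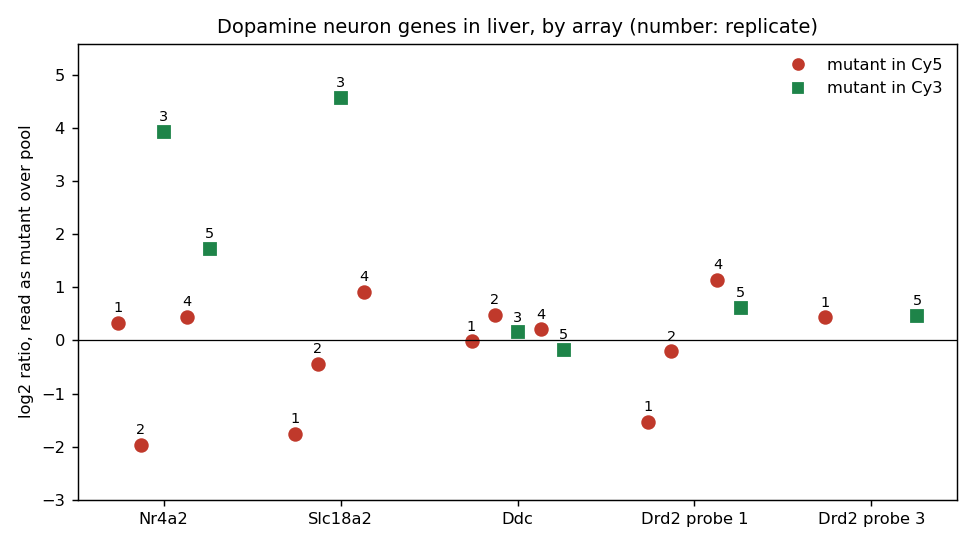
Log2 ratios, read as mutant over pool, of the 5 member probes with a measured value (x axis), 1 point per array, with the replicate number above it. Circles are arrays with the mutant in Cy5 and squares arrays with it in Cy3. Nr4a2 and Slc18a2 reach 3.94 and 4.57 on replicate 3, while Ddc stays between -0.18 and 0.48.

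The tested member probes, 4 of 6, all had a mutant coefficient above 0, with a median of 0.71. That median was 0.21 without replicate 3 and 1.77 without replicate 5, where 3 probes were left in each case, and -1.01 with the dye-swapped arrays turned. Over all tested probes 53.9% lay above 0, and the median was 0.04. After adjustment limma called 0 of the 4 members for the mutant coefficient, where 0% of all probes were called. At an unadjusted p under 0.05, 1 member (Slc18a2) lay above 0, against a background of 2.35% of all probes in that direction and 4.16% in either. Below 0 there were 0 members at that p, where 1.81% of all probes lay. With only 4 probes, none of these shares is a result about the set.

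The dye coefficient was not called for any member (limma adjusted p 0.521 to 0.975). In 4 of 4 member probes the dye coefficient exceeded the mutant coefficient in size, as it did in 52.9% of all tested probes; with the dye-swapped arrays turned, the count was 0 of 4. For Ddc the 2 coefficients were close to each other, at 0.12 and 0.10. Nr4a2 and Slc18a2 had an unadjusted limma p under 0.05 for the dye coefficient (0.0317 and 0.0153), both with negative coefficients, against a background of 7.38% of all probes (5.89% below 0 and 1.49% above), the value of Slc18a2 resting on its single Cy3 array. By size, the dye coefficient of Slc18a2 was above that of 98.1% of tested probes and that of Nr4a2 above 93.0%, while Ddc was above 21.0%. limma called 0% of all probes for the dye coefficient after adjustment (lowest adjusted p 0.429).

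**Figure D2:**
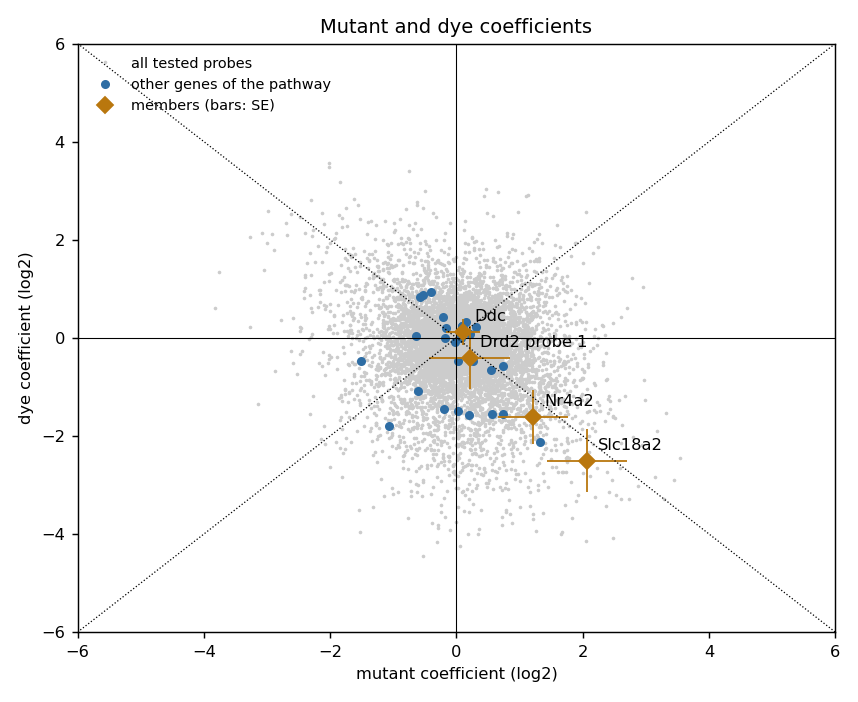
Mutant coefficient (x axis, log2) against dye coefficient (y axis, log2) for all 11300 tested probes in grey, the other genes of the pathway in blue and the 4 tested member probes as diamonds with SE bars. Dotted lines mark equal size of both coefficients. Nr4a2 (1.22, -1.62) and Slc18a2 (2.07, -2.50) lie to the lower right, and Ddc and Drd2 probe 1 lie near the centre.

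Members differed widely in how far their arrays lay apart. The SD over 5 arrays was 2.16 for Nr4a2 and 0.25 for Ddc, where the median of the 6364 probes measured on all 5 was 0.71. Nr4a2 stood at the 91.6th percentile of these probes and Ddc at the 5.80th. For probes measured on 4 arrays, Slc18a2 had an SD of 2.73 at the 87.1st percentile, and Drd2 probe 1 had 1.17 at the 39.6th. With the dye-swapped arrays turned, the SD was 1.82 for Nr4a2 (88.5th percentile), 0.24 for Ddc (4.92nd), 2.34 for Slc18a2 (84.4th) and 1.11 for Drd2 probe 1 (39.7th). Among hepatocyte markers, 4 of the 5 probes measured on every array had an SD under the overall median, and 3 of 5 with the arrays turned. Of these, Alb and Apoa1 are named after their values were seen. Albumin (Alb), the main secreted protein of hepatocytes, had 0.15, at the 1.07th percentile (0.21 turned). The 5th hepatocyte probe, of the apolipoprotein gene Apoa1, was at 2.16 (2.69 turned).

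**Figure D3:**
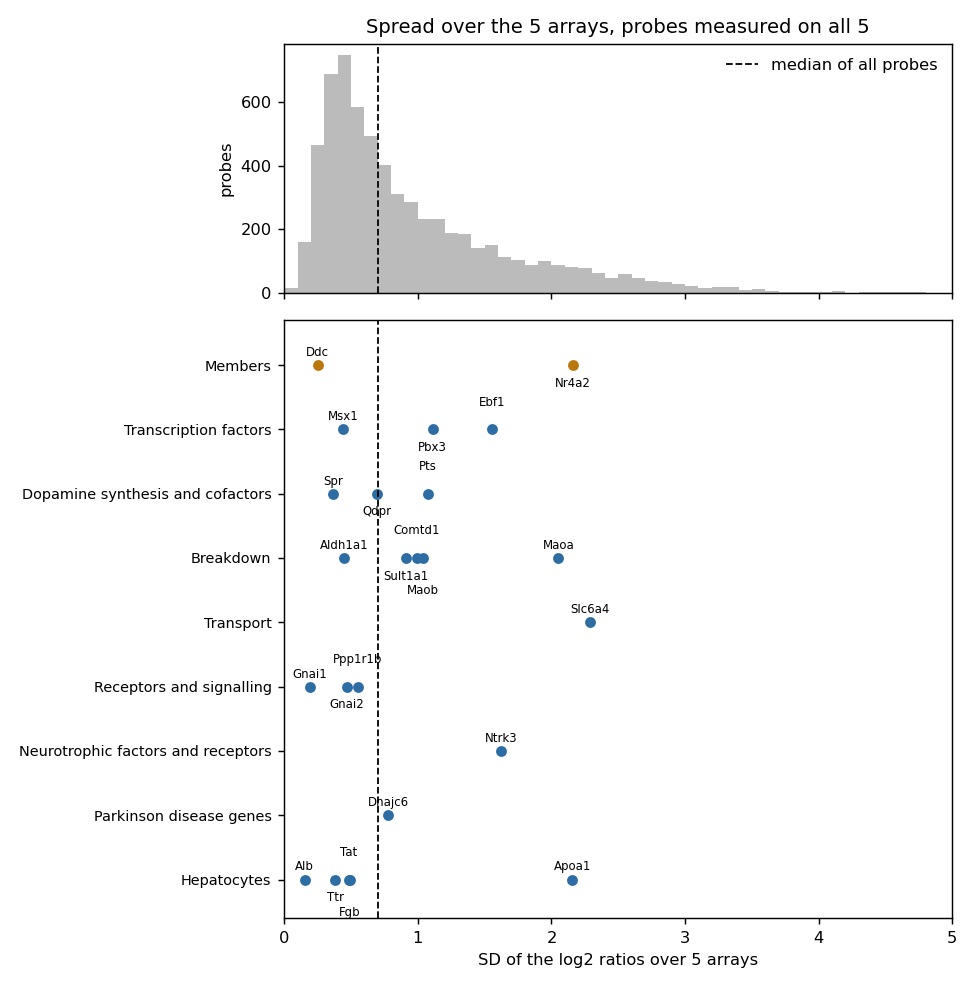
Top, histogram of the SD of the log2 ratios over 5 arrays (x axis) for the 6364 probes measured on all 5 (y axis, probes). Bottom, the same SD for members, pathway lists and hepatocyte markers, 1 point per probe, with the median of all probes (0.71) as a dashed line. Ddc (0.25) lies at the low end near Alb (0.15), and Nr4a2 (2.16) at the high end.

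Other genes of the dopamine pathway were taken from 7 lists with 79 genes, of which 37 had a probe and 26 were tested, on 29 probes. Of these probes 17 had a mutant coefficient above 0 and 12 below. limma called 0 in each direction after adjustment, and 0 had an unadjusted p under 0.05, where the background was 4.16%. The dye coefficient exceeded the mutant coefficient in size for 22 of the 29 probes, against 52.9% of all tested probes, or for 7 of 29 against 47.1% with the dye-swapped arrays turned. Of the 29, 3 had an unadjusted p under 0.05 for it, against 7.38% of all probes.

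Transcription factors and cofactors of dopamine neurons had 7 tested probes, 3 above and 4 below 0 (median -0.16). Nr4a3, a close relative of Nr4a2 that binds the same element, had 1.06 and -2.66 on replicates 1 and 4 (Cy5) and 3.73 and 3.18 on replicates 3 and 5 (Cy3). Both Cy3 arrays lay above both Cy5 arrays, as in 25.5% of the 3268 probes measured on 2 arrays of each orientation. Its mutant coefficient was 1.33 ± 0.71 (SE, n = 4 arrays) and its dye coefficient -2.13 ± 0.71. Nr4a1, of the same list, was untested and is named after its values were seen. It had -2.06 on replicate 1 and -0.145 on replicate 3, where Nr4a3 had 1.06 and 3.73. Pbx3, a homeodomain cofactor, went the other way from Nr4a3, at -0.41 ± 0.31 with a dye coefficient of 0.93 ± 0.31. The retinoid X receptor gene Rxra, whose product pairs with NR4A2, was chosen after its values were seen. A probe of it had a dye coefficient of -1.58 ± 0.39 beside a mutant coefficient of 0.19 ± 0.39. Both rest on replicate 5 as its only measured Cy3 array. On replicate 5 it had 1.77 and another, untested Rxra probe 1.41, but on replicate 4 they had -1.86 and 0.785. In 7 of 7 tested probes of this list the dye coefficient exceeded the mutant coefficient in size, against 52.9% of all tested probes, or in 0 of 7 with the dye-swapped arrays turned.

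Enzymes of dopamine synthesis and of its cofactor tetrahydrobiopterin, which liver also uses to break down phenylalanine, had 4 tested probes, 2 above and 2 below 0 (median -0.06). Sepiapterin reductase, Spr, lay near the pool with a mutant coefficient of 0.09 ± 0.27 and array values from -0.28 to 0.70. Qdpr, which recycles the cofactor, had -0.21 ± 0.33, and Pts, an earlier enzyme of cofactor synthesis, had 0.73 ± 0.43. Pcbd1, the carbinolamine dehydratase, had -1.51 ± 0.86 on 4 arrays, with -3.48 on replicate 1 as its lowest value and 0.77 on replicate 5 as its highest. Gch1, the entry enzyme of the cofactor pathway, was measured on 3 arrays and not tested. Replicates 2 and 4 (Cy5) had -2.97 and 1.74, and replicate 3 (Cy3) had 3.80.

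Enzymes that break down dopamine and other amines had 5 tested probes, 2 above and 3 below 0 (median -0.18). The monoamine oxidase gene Maoa had a mutant coefficient of -0.57 ± 0.78, with -3.84 on replicate 3 and -0.63 to 1.14 on the other arrays. Its partner Maob had -0.18 ± 0.49. Aldh1a1, an aldehyde dehydrogenase found in dopamine neurons and in liver, had 0.30 ± 0.30 with 4 of 5 arrays above 0. The sulfotransferase gene Sult1a1 had -0.64 ± 0.44 with 4 of 5 arrays below 0, and the catechol methyltransferase relative Comtd1 had 0.07 ± 0.47. Aldh2, the mitochondrial aldehyde dehydrogenase, had 2 probes on too few arrays for the test. On replicates 1, 3 and 5, 1 of them had -2.39, -2.47 and -1.62. The other had -1.93 on replicate 1 and 1.91 on replicate 5.

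Transporters had 1 tested probe, of the serotonin transporter gene Slc6a4, at 0.02 ± 0.68 with a dye coefficient of -1.50 ± 0.68. Receptor and signalling genes had 4, 3 above and 1 below 0 (median 0.07). Among these, Ppp1r1b, the DARPP-32 phosphoprotein of dopamine-responsive neurons, had 0.11 ± 0.32, and a probe of the G protein gene Gnao1 had -0.61 ± 0.73. Neurotrophic factors and receptors had 5, 4 above and 1 below 0 (median 0.55). There the GDNF co-receptor gene Gfra1 had -1.07 ± 1.06, and a probe of the neurotrophin receptor gene Ntrk3 had 0.55 ± 0.58. Another tested Ntrk3 probe had 0.22 ± 0.69. On replicate 1 the tested Ntrk3 probes had -0.571 and -0.679, and the untested ones -3.745 and -4.025. Genes linked to Parkinson disease had 3, 2 above and 1 below 0 (median 0.15). Among them a probe of Park7 had 0.15 ± 0.33 and a probe of Dnajc6 had 0.27 ± 0.51. Another Park7 probe, untested, had 4.653, -1.975 and -2.343 on replicates 1, 3 and 4. The 95% interval of the mutant coefficient included 0 for each of the 29 probes.

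**Figure D4:**
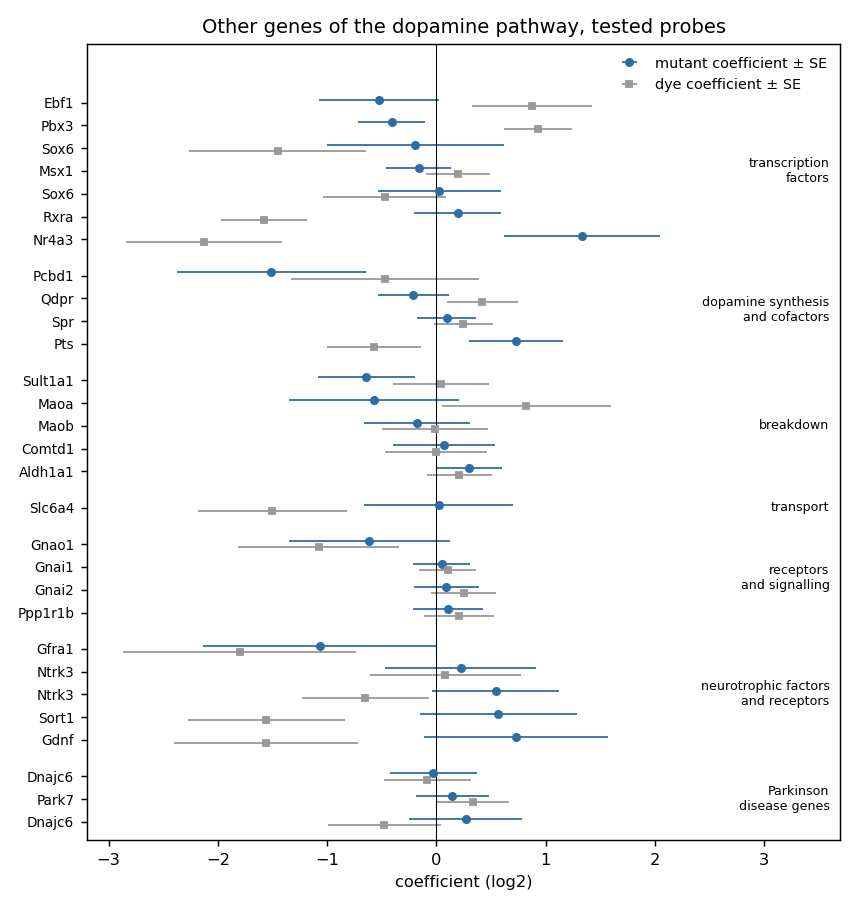
Mutant coefficient (circles) and dye coefficient (squares), both log2 with SE bars (x axis), for the 29 tested probes of the other pathway genes, grouped by list (y axis; a gene has a line for each tested probe). Nr4a3 has the highest mutant coefficient, 1.33, with a dye coefficient of -2.13, and Pcbd1 the lowest, -1.51; with the dye-swapped arrays turned, Pbx3 is highest at 0.93 and Nr4a3 lowest at -2.13.

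Neuron and nerve fibre markers had probes for 9 of 11 genes and 7 tested probes, 6 above and 1 below 0 (median 0.10). A probe of the synaptic vesicle gene Syt1 had a mutant coefficient of 1.27 ± 0.64 with 4 of 4 arrays above 0. Another tested Syt1 probe had 0.24 ± 0.50, with -0.62 on replicate 5 where the first had 1.29. An untested Syt1 probe had 0.45 on replicate 2 and -2.54 on replicate 4, so the probes of this gene differed. The tested probe of Stmn2 had -0.31 ± 0.40, and its other probes were on too few arrays for the test. The lowest median of the list on an array was -0.42 (replicate 5) and the highest 0.69 (replicate 2). Hepatocyte markers had 7 tested probes, 3 above and 4 below 0 (median -0.05). Among them Tat, tyrosine aminotransferase, had -0.78 ± 0.27, and a probe of the iron carrier gene Trf had 1.13 ± 0.49. On replicates 1 and 5 that Trf probe had -0.386 and 1.141, where another, untested Trf probe had 0.729 and -0.203. limma called 0 marker probes after adjustment. Their part in the member values was not tested.

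The named probes most like each member were found by the root mean square difference over 5 arrays, among 4593 probes of other genes. For Ddc the nearest were Mccc1, a leucine breakdown enzyme (0.10), and Il6st, the signal-transducing receptor chain for interleukin 6 (0.12). Ddc had many such neighbours, with 1091 probes (23.8%) within 0.5. Nr4a2 had 0 within 0.5, and its nearest were 4930548H24Rik (0.51) and Ptgr2, a prostaglandin reductase (0.83). Ptgr2 had 2.57 on replicate 3 and -1.53 on replicate 2, the arrays where Nr4a2 was highest and lowest. These distances describe 5 arrays that share 1 pool. They were taken on unscaled ratios, so the counts within 0.5 largely follow the SDs of Ddc and Nr4a2 given above.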

How the data were processed

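Liver RNA of 5 mutant mice was measured on 2-colour arrays against a wild-type pool; 20 µg of total RNA were reverse transcribed and dye-labelled, per the labels' protocols. The deposited values are log2 ratios; how they were scanned, background-corrected and scaled is not given in the sources used here. Values over 12 in absolute size (788) are codes and were set to missing. The 11300 probes that had 4 or 5 measured values, with each dye orientation present, were fitted with limma 3.58.1 (R 4.3.3; intercept and dye term, lmFit and eBayes), tested on simulated data, with Benjamini-Hochberg adjustment and a threshold of 0.05. The pool is 1 control sample, so ratios were tested against 0. Gene names came from the platform annotation: 14030 probes have 1 symbol, 5 several and 6320 are unnamed here. RefSeq's GRCm38.p6 table held 13994 of their gene identifiers. Members and lists were chosen with earlier results of these data known. Genes named were all members, all of the synthesis and breakdown lists, up to 2 per other list by lowest unadjusted p, and the 2 nearest probes of each fully measured member. Further genes are marked where named. Alternatives concerned the dye term, centring, filters, codes, simple fractions, direction, probe averaging and single replicates. Unused value columns numbered 0.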

Additional observations from a re-analysis of the deposited data

Results flagged for a closer look

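Of 28 probes of named genes with 4 or 5 measured arrays, 1 had an array far from the others. A probe of Dnajc6, a co-chaperone gene of clathrin uncoating, had a log2 ratio of -1.40 on replicate 1, against 0.59 as the nearest of its other 3 arrays. The gap to the nearest array was 0.836 of the whole range. Chance gives such a gap in about 1 of 20 groups.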

How the results depend on the processing

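limma called 0 probes for either coefficient under every alternative in which it was fitted, including each left-out replicate (0 to 0). At an unadjusted p under 0.05 the mutant coefficient counted between 242 of 6364 probes (values on all 5 arrays) and 834 of 11300 (sign of replicates 3 and 5 turned). The settings differ in the number of probes tested, so these counts are not to be read as shares. Without a dye term it counted 375 of 11300. With that sign turned, the members' median mutant coefficient was -1.01 and their median dye coefficient 0.71. The mutant coefficient was then -1.62 for Nr4a2, -2.50 for Slc18a2 and -0.40 for Drd2 probe 1, and the dye coefficient 1.22, 2.07 and 0.21, since both trade places by construction. Leaving out values at simple fractions removed Ddc from the test, and the medians over the remaining 3 probes were 1.77 and -2.17. With 1 replicate left out, the median mutant coefficient ranged from 0.21 to 1.77 and the median dye coefficient from -2.17 to -0.40. Over the same settings the mutant coefficient of Drd2 probe 1 ranged from -0.13 to 0.54. Slc18a2 without replicate 3 and Drd2 probe 1 without replicate 5 could not be fitted with a dye term. Filters after leaving out a replicate asked for 3 of 4 arrays. Centring, 3-array filtering, keeping codes and averaging probes turned no member's sign. Turning the sign of replicates 3 and 5 for the SDs over arrays was added after seeing the data. A simple fraction is a value within 0.001 of the array's constant plus the log2 of a ratio of whole numbers up to 20. Of the 20 measured member values 4 were simple fractions: Nr4a2 on replicate 5, Ddc on replicates 1 and 5, and Drd2 probe 3 on replicate 5. Over all probes they made up 20.1% (replicate 1) to 29.6% (replicate 3) of the values on an array. What lies behind them was not tested. No paired analysis was possible because the series has 1 group of mutant animals and 1 pool. No brightness accompanies the ratios, so signal over background is unknown for every member.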

Other observations

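Some pathway genes outside the fixed naming rule were looked at after their values were seen, and they are given as values only. Ret, the receptor tyrosine kinase for GDNF, was measured on 3 arrays, with 0.10 on replicate 4 (mutant in Cy5) and 5.36 and 2.60 on replicates 3 and 5 (mutant in Cy3). Gdnf, the ligand, had a mutant coefficient of 0.73 ± 0.84 and a dye coefficient of -1.56 ± 0.84. It had -2.43 and 0.777 on replicates 1 and 2 (Cy5), and 0.674 and 3.91 on replicates 3 and 5 (Cy3), so its dye groups overlapped. The sorting receptor gene Sort1, which handles neurotrophins, had a probe at 0.57 ± 0.72 with a dye coefficient of -1.56 ± 0.72. Both rest on replicate 5 as the only measured Cy3 array of that probe. At the other end stood the G protein gene Gnai1, through which D2-type receptors can signal, with an SD of 0.19 over 5 arrays and a mutant coefficient of 0.05 ± 0.26.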
